A study of Mus musculus with 9 samples.

Results

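Submandibular glands of mice healing from partial surgical resection were compared between day 14 and day 3 after the operation. The comparison used the 3 arrays titled as day 14 resected and the 3 titled as day 3 resected, which are 6 of the 9 arrays of the series. Every measured transcript cluster, the unit that stands for 1 gene or a part of it on the array, was included, so 22206 clusters were tested and 6640 control rows were left out. All animals were female C57BL6/J mice labelled as 12 weeks old, kept under an ordinary cycle of light and dark with 12 h of each. Day 3 resected and day 14 resected glands had part of the gland removed and then healed for 3 or 14 days. The remaining 3 arrays came from glands 3 days after mock surgery, and they serve here as a reference level only. Mock-operated animals were not followed to day 14, per the labels, so the effect of time since surgery and the effect of healing from resection cannot be told apart. The hour of tissue collection is not given in the labels. Each group held 3 biological replicates, per the series' design.

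The mouse submandibular gland makes saliva in acinar cells and modifies it in ducts, and its granular convoluted tubules store kallikreins and growth factors for secretion. After tissue is removed, an injured epithelium and the blood deliver inflammatory signals, phagocytes clear debris, fibroblasts lay down matrix, and surviving cells may enter the cell cycle. Copying of the genome in S phase needs the MCM helicase and nucleotide synthesis, and division in M phase needs cyclin B with its kinase, the spindle and the kinetochore. In repair that resolves, these programmes are transient, whereas fibrosis keeps matrix genes active.

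The deposited values are log2 levels, and a difference of 1 is nominally a 2-fold change, although array values compress large changes. They end at a ceiling of 19.9, which 17 clusters reached on all 6 resected arrays. The gland's identity was checked on its own products: Prol1, Pip, Car6 and Klk1, which encode abundant salivary proteins, lay at that ceiling on every array. The acinar water channel Aqp5 read between 14.23 and 15.15 on the resected arrays. Correlations over all tested clusters were 0.988 to 0.990 among day 3 arrays, 0.988 to 0.989 among day 14 arrays and 0.970 to 0.979 between the 2 days. The first principal component of the 6 arrays held 56.8% of the variance and placed the day 3 arrays between 31.4 and 58.5 and the day 14 arrays between -50.3 and -45.5. The median of 5222 negative control rows was 4.70 ± 0.06 (SD, n = 3) on day 3 and 4.55 ± 0.06 on day 14; its part in the results was not tested. All 3 day 14 values lay at or below that median for 130 of the 1084 clusters lower on day 14 (12.0%), and all 3 day 3 values for 80 of the 310 higher ones (25.8%). For such a gene the measured log2 difference is taken against a level not above background, and a bound is given beside it, computed with each such reading set to the negative control median of its array.

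Most clusters called different between the 2 days in the resected gland were lower on day 14. Of 22206 clusters, 1394 passed an adjusted p of 0.05 (limma's moderated test, Benjamini-Hochberg adjustment), which is 6.28% of those tested. Among them, 1084 were lower on day 14 (4.88% of those tested) and 310 were higher (1.40%). The falls were also larger. At least a 4-fold difference was found for 392 lower and 29 higher clusters, and at least 16-fold for 60 lower and 2 higher clusters. All 3 day 14 values lay below all 3 day 3 values for 12.5% of clusters and above them for 12.9%, so by this rule the directions were nearly even. The median over all clusters was 0.06, against -1.67 over the lower and 1.12 over the higher ones. The clusters lower on day 14 had a median level of 8.58 on day 3, 6.61 on day 14 and 6.83 in mock glands. For those higher on day 14, these medians were 7.17, 8.46 and 8.01. Without day 3 resected replicate 3, 874 clusters passed, 129 of them higher. The higher count was also 199, 190 and 181 without day 14 resected replicate 1, 2 or 3, and 170 without day 3 resected replicate 2.

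**Figure D1:**
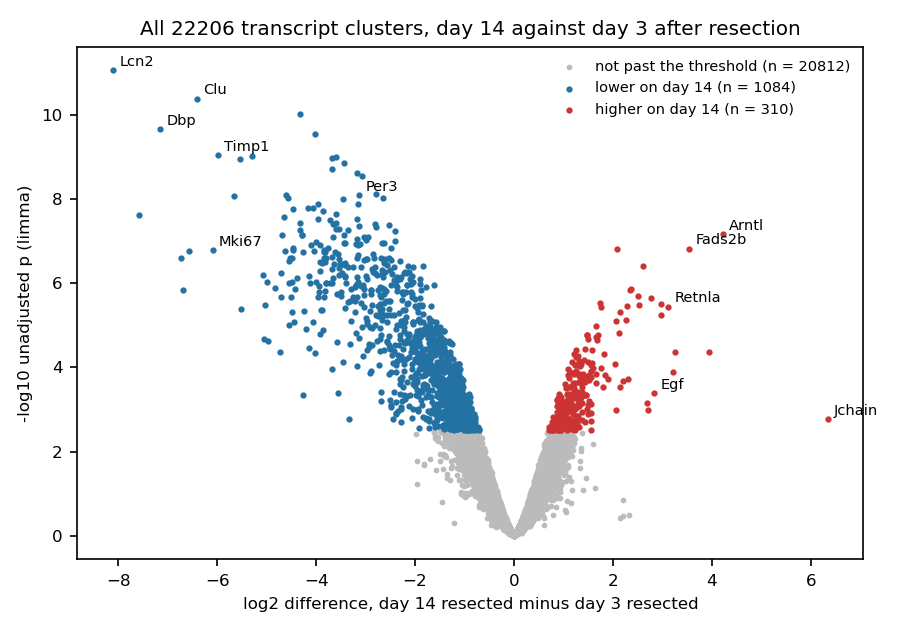
Each point is a transcript cluster, with the log2 difference (day 14 resected minus day 3 resected) on the x axis and -log10 of the unadjusted limma p on the y axis. The 1084 blue points are lower on day 14 and spread further from 0 than the 310 red points that are higher; Lcn2 lies farthest to the left and Jchain farthest to the right.

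Genes were then read in 40 lists of pathways and cell types, with 620 of 679 listed genes measured. A list is described below by how many of its measured genes passed in each direction and by its median log2 difference, to be read against 4.88% lower, 1.40% higher and a median of 0.06 over all clusters. The lists with the lowest medians held genes of mitosis (-4.06), DNA replication (-3.41), macrophages (-2.21), cholesterol and fatty acid synthesis (-1.82), interstitial matrix (-1.78) and the acute phase (-1.62). The highest median belonged to the granular convoluted tubule (1.37). In 10 of the 40 lists no gene passed.

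**Figure D2:**
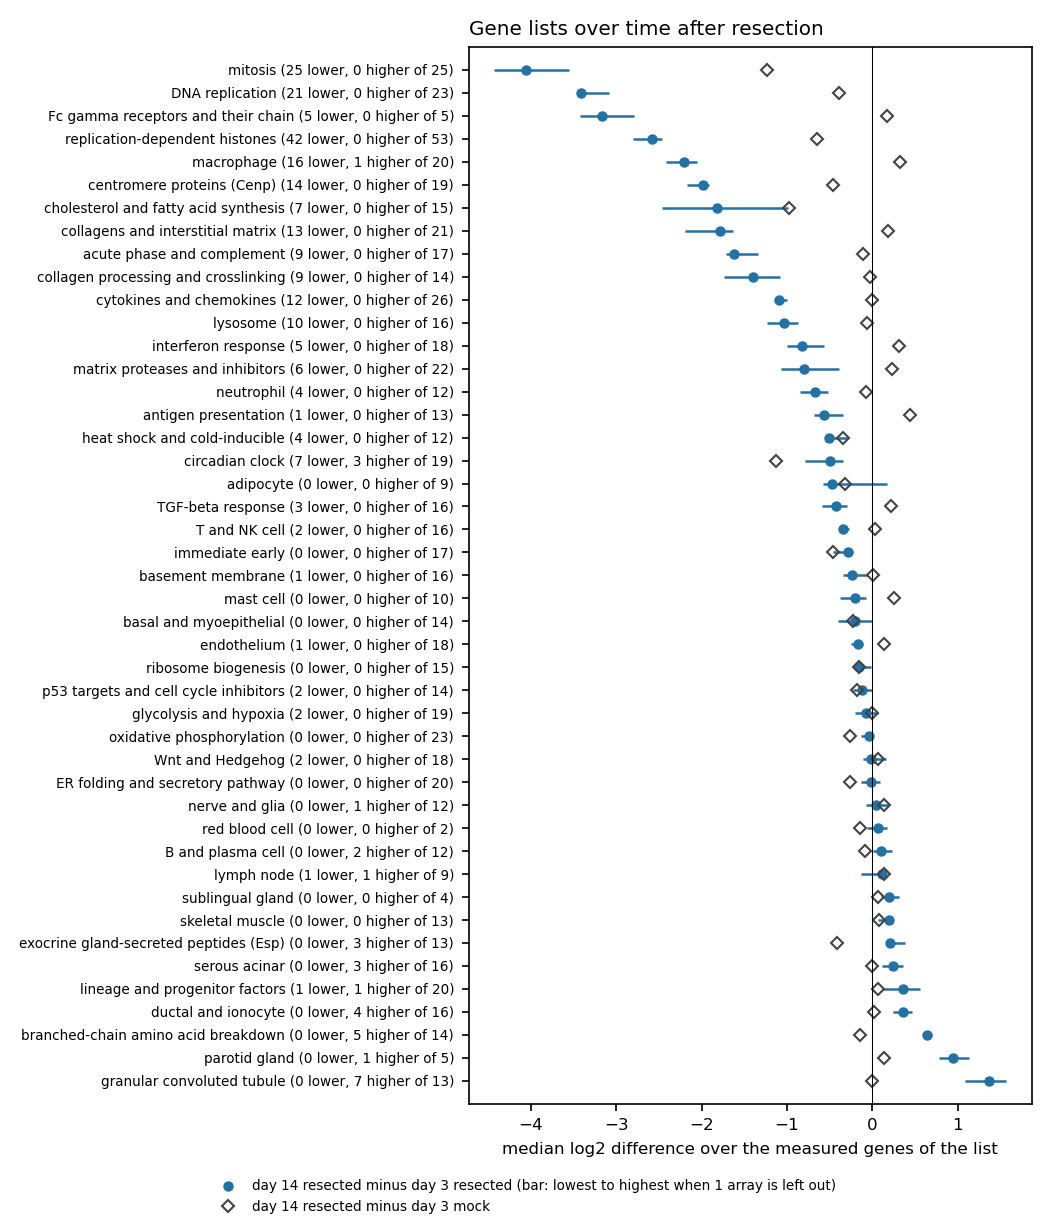
Filled circles give each list's median log2 difference between day 14 and day 3 resected glands, with a bar from the lowest to the highest median when 1 array is left out; open diamonds give day 14 resected minus day 3 mock for the same genes. Row labels count the genes that passed. Mitosis (-4.06) and DNA replication (-3.41) lie lowest and granular convoluted tubule (1.37) highest. The lists of Fc gamma receptors, replication-dependent histones, centromere proteins, Esp peptides and branched-chain amino acid breakdown were drawn up after values had been seen.

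Genes of cell division were among the strongest falls. All 25 measured mitosis genes were lower on day 14, and so were 21 of 23 DNA replication genes; none of either list was higher. In bulk tissue, fewer dividing cells and less of these RNAs per cell cannot be told apart. Mki67, the antigen used to stain cycling cells, read 13.56, 15.29 and 14.31 on day 3 and 7.83, 8.29 and 8.77 on day 14, with 12.03, 10.41 and 9.19 on the mock arrays. Every day 3 array was above every mock array and every day 14 array below every mock array, and the day 14 minus day 3 difference was -6.09 ± 0.59 (SE, adjusted p = 5.0e-05). Cdk1, the kinase that drives entry into mitosis, read 7.95, 10.04 and 9.51 on the 3 day 3 arrays, 4.22, 3.67 and 3.06 on the 3 day 14 arrays and 6.24, 5.75 and 3.0 on the 3 mock arrays. Its levels on the 2 days did not overlap, and the measured difference was -5.52 ± 0.72 (SE, adjusted p = 3.6e-04). The 3 day 14 readings were at or below the negative control median of their arrays, so the difference is given as a bound of at least 4.62. Ube2c, the ubiquitin-conjugating enzyme with which the anaphase-promoting complex destroys cyclins, was at 10.33, 12.25 and 11.79 on the day 3 arrays and 4.83, 3.91 and 5.92 on the day 14 arrays, beside 8.57, 8.23 and 6.25 in mock glands, a difference of -6.57 ± 0.64 (SE, adjusted p = 5.0e-05). Day 3 replicate 1 was the lowest of the 3 day 3 arrays for all 3 of these genes.

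Other parts of the mitotic machinery fell together with them. The cyclins Ccna2 and Ccnb2 differed by -4.97 ± 0.76 (SE, adjusted p = 0.00131) and -4.24 ± 0.56 (SE, adjusted p = 3.8e-04). The spindle kinases Plk1, Aurka and Aurkb differed by -4.71 ± 0.58, -2.76 ± 0.43 and -3.55 ± 0.37, and Bub1, a kinase of the spindle checkpoint, by -4.46 ± 0.43. Among motors and spindle proteins, Kif11 differed by -4.45 ± 0.62, Tpx2 by -4.15 ± 0.67 and Kif23 by -2.23 ± 0.32. Pbk, a kinase active in mitosis, read 12.16, 14.05 and 13.13 on day 3 and 6.08, 6.55 and 6.62 on day 14, with 9.56, 10.49 and 6.40 on the mock arrays. Esco2, which acetylates cohesin so that sister chromatids hold together, read 9.03, 11.17 and 9.85 on the 3 day 3 arrays, 5.14, 4.61 and 5.15 on the 3 day 14 arrays and 8.36, 7.16 and 4.45 on the 3 mock arrays. The mock arrays of these genes were widely spread, and for Pbk the lowest mock array lay within the day 14 range. Their differences between the days were -6.70 ± 0.79 for Pbk, -5.05 ± 0.77 for Esco2 and -5.03 ± 0.64 for Kif20b, a kinesin of cytokinesis.

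Genes of S phase showed the same direction. Mcm6, a subunit of the helicase that opens DNA at replication forks, read 12.52, 13.0 and 12.63 on the day 3 arrays and 7.07, 7.51 and 8.56 on the day 14 arrays, beside 8.88, 9.82 and 6.98 in mock glands. The day 3 arrays lay within a narrow band about 4 units above the highest day 14 array, and the difference was -5.0 ± 0.57 (SE, adjusted p = 1.3e-04). All of Mcm2 to Mcm6 on the list passed, from -5.0 ± 0.57 for Mcm6 to -2.63 ± 0.27 for Mcm2. Pcna, the clamp that holds polymerases on DNA, read 17.28, 17.55 and 17.42 on day 3 and 13.27, 13.55 and 13.46 on day 14, with 15.09, 15.79 and 13.34 on the mock arrays. Pcna thus stayed bright on every array, and its day 14 values overlapped those of mock glands; the days differed by -3.99 ± 0.45 (SE, adjusted p = 1.3e-04). Rrm1 and Rrm2, the subunits of ribonucleotide reductase, differed by -3.89 ± 0.40 and -4.55 ± 0.65. The 2 list genes that did not pass were Lig1, the ligase that seals Okazaki fragments (-1.02 ± 0.29, adjusted p = 0.0546), and Orc1 (adjusted p = 0.38), which was near background on both days. Against mock glands, the day 14 median was -1.24 for the mitosis list and -0.39 for the DNA replication list; this comparison shares the day 14 arrays with the main one. Of 14 measured p53 targets and cell cycle inhibitors, 2 were lower on day 14, Cdkn1a (-2.69 ± 0.40) and Cdkn2c (-1.67 ± 0.36), and none was higher. Cdkn1a encodes the inhibitor p21, and it fell with the genes that drive division. The Cdkn2c call was lost without any 1 of day 3 resected replicates 2 and 3 and day 14 resected replicates 2 and 3 (adjusted p between 0.0511 and 0.0609).

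**Figure D3:**
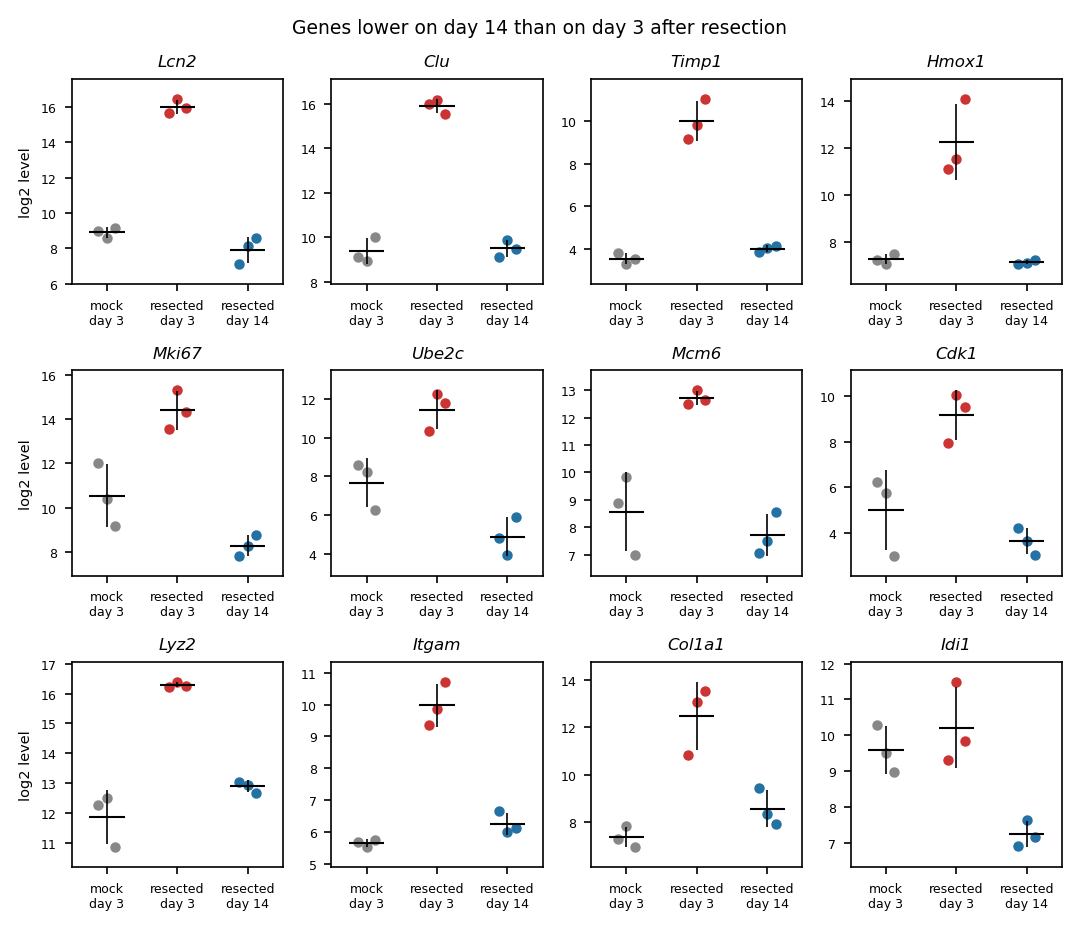
The log2 level on each array is plotted for 12 genes lower on day 14, grouped as mock day 3, resected day 3 and resected day 14; the horizontal line is the mean and the vertical line the SD (n = 3). In all 12 panels the day 3 resected points lie above all day 14 resected points, with the y axis scaled to each gene.

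The start regions of these genes are shown because nearly all members of 2 lists moved one way. Promoter sequence, 250 bases before to 50 after the start site, was taken from RefSeq on GRCm38.p6, and 21 of the 25 mitosis genes and 20 of the 23 replication genes had an entry, some with more than 1 start site. Genes expressed in mitosis are known for a cell cycle homology region (CHR, letters TTTGAA) near the start site, often with CCAAT boxes, and genes of S phase for sites of the E2F factors. Searched on both strands, TTTGAA was present in 18 of 23 mitosis promoters (78.3%) and in 17.9% of all 32851 promoters in the table. CCAAT was present in 19 of 23 (82.6%), against 37.4% of all promoters. It was also common in other lists, with 72.7% for the circadian clock, 69.2% for cholesterol and fatty acid synthesis, 58.3% for DNA replication and 57.1% for the granular convoluted tubule. The 4 E2F-type octamers searched (TTTGGCGC, TTTGGCGG, TTTCCCGC and TTTCCCGG) were found in 8 of 24 replication promoters (33.3%) and in 3.32% of all promoters; they were in 1 of 23 mitosis promoters (4.35%). For DNA replication, TTTGAA was in 3 of 24 promoters (12.5%). A letter match is a description of the sequence and not a bound site, and the share of all promoters shows how often such letters occur. The next 3 promoters belong to mitosis genes that fell, with TTTGAA and CCAAT on either strand in capitals. They are Ube2c (chr2:164769679-164769978, plus strand), Plk1 (chr7:122159185-122159484, plus strand) and Ccnb2 (chr9:70421505-70421804, minus strand).
Ube2c: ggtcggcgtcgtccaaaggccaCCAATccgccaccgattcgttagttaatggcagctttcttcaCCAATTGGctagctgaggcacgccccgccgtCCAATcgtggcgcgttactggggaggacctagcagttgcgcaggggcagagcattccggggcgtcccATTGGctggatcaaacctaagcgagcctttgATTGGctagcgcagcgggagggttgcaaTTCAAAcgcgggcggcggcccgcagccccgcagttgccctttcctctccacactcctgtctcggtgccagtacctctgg
Plk1: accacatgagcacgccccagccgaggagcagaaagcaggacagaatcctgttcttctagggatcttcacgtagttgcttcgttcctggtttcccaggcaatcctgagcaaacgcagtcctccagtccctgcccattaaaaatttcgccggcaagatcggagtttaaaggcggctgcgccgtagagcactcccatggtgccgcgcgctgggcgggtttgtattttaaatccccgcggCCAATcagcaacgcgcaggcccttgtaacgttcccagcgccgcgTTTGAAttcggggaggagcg
Ccnb2: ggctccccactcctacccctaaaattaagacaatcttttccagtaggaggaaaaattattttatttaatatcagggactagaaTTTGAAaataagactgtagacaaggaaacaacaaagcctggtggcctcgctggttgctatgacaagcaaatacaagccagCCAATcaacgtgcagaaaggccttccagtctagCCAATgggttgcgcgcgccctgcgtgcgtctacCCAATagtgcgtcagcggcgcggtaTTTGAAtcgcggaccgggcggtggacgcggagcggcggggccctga
In Ube2c the CHR letters, read on the opposite strand, begin at position -29 from the start site and in Plk1 at position 31, and Ccnb2 holds them at -167 and 5. Mcm6 (chr1:128359656-128359955, minus strand) and Mcm5 (chr8:75109259-75109558, plus strand) are shown for the E2F-type letters, which are in capitals.
Mcm6: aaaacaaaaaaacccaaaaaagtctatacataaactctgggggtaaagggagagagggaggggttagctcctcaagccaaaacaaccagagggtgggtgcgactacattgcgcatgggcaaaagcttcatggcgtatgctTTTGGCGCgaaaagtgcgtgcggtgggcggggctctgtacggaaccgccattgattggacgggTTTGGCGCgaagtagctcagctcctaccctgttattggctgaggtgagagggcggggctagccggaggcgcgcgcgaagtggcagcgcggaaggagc
Mcm5: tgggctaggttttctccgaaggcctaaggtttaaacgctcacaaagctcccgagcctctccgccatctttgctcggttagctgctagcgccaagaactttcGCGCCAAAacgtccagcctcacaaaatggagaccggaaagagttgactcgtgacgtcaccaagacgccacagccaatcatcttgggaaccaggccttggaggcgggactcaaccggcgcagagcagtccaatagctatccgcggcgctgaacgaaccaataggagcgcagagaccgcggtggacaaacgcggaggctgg
Mcm6 holds the octamer at -110 and -47, and Mcm5 holds its reverse complement at -149. Mcm5 itself read 7.87, 8.73 and 8.45 on the 3 day 3 arrays, 4.35, 3.75 and 3.56 on the 3 day 14 arrays and 3.89, 5.25 and 4.14 on the 3 mock arrays, a difference of -4.46 ± 0.36 (SE, adjusted p = 1.5e-05), with day 14 not above background and a bound of at least 3.80.

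Acute phase and injury-response genes included the largest single fall. In this list 9 of 17 measured genes were lower on day 14 and none was higher. Lcn2, which encodes lipocalin 2, an iron-scavenging protein released by injured epithelium and by neutrophils, read 15.68, 16.47 and 15.94 on the day 3 arrays and 7.09, 8.11 and 8.56 on the day 14 arrays, beside 8.96, 8.58 and 9.18 in mock glands. All day 3 arrays were far above both other groups, and the fall to day 14 was -8.11 ± 0.35 (SE, adjusted p = 1.9e-07). Clu, which encodes the extracellular chaperone clusterin, read 15.98, 16.16 and 15.55 on day 3 and 9.10, 9.89 and 9.48 on day 14, with 9.11, 8.93 and 10.02 on the mock arrays. The day 14 and mock values of Clu overlapped, and the days differed by -6.41 ± 0.31 (SE, adjusted p = 4.6e-07). Serpina3n, a secreted protease inhibitor of the acute phase, differed by -5.30 ± 0.33 (SE, adjusted p = 2.5e-06). Saa3, serum amyloid A3, read 9.0, 10.91 and 8.69 on the 3 day 3 arrays, 5.06, 5.82 and 4.54 on the 3 day 14 arrays and 4.90, 5.47 and 5.36 on the 3 mock arrays; its spread was widest on day 3, where replicate 2 was highest. Complement genes of the list moved less: Cfb differed by -2.67 ± 0.25, C4b by -1.75 ± 0.32 and Serping1, the C1 inhibitor, by -1.90 ± 0.33. Outside this list, Hmox1, the enzyme that breaks down haem, read 11.11, 11.52 and 14.07 on the day 3 arrays and 7.06, 7.13 and 7.25 on the day 14 arrays, beside 7.25, 7.06 and 7.50 in mock glands. Its day 14 arrays were within 0.2 of one another while day 3 resected replicate 3 stood above the other day 3 arrays, and the difference was -5.08 ± 0.56 (SE, adjusted p = 1.0e-04). Of the 15 largest falls, all 15 kept their call in every alternative and with any array left out. Against mock glands, 14 of these 15 did not pass on day 14, the exception being Dbp.

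Macrophage genes fell as a group, with 1 exception. Of 20 measured, 16 were lower on day 14 and 1, Retnla, was higher; the median was -2.21 and the day 14 minus mock median was 0.32. Each gene was centred on its own mean over the arrays, and the median over the list was taken for each array. This median was 1.31 to 1.94 on day 3 arrays, -0.64 to -0.50 on day 14 arrays and -1.30 to -0.82 on mock arrays. Day 14 glands therefore lay between the other groups on this scale without overlapping either. Lyz2, the lysozyme of myeloid cells, read 16.23, 16.39 and 16.26 on day 3 and 13.05, 12.94 and 12.66 on day 14, with 12.25, 12.51 and 10.84 on the mock arrays, a difference of -3.41 ± 0.35 (SE, adjusted p = 6.8e-05). Itgam, which encodes the integrin CD11b, read 9.35, 9.85 and 10.71 on the 3 day 3 arrays, 6.65, 6.01 and 6.12 on the 3 day 14 arrays and 5.70, 5.52 and 5.74 on the 3 mock arrays and differed by -3.71 ± 0.31 (SE, adjusted p = 2.1e-05). The tissue macrophage gene Adgre1 (F4/80) differed by -2.20 ± 0.24, the lipid-sensing receptor Trem2 by -3.44 ± 0.31, the monocyte chemokine receptor Ccr2 by -2.23 ± 0.35 and the complement starter genes C1qa, C1qb and C1qc by -2.64 ± 0.20, -2.63 ± 0.27 and -2.49 ± 0.25. Retnla, which encodes a secreted resistin-like protein of alternatively activated macrophages, ran the other way. It read 8.64, 7.67 and 7.29 on the day 3 arrays and 11.36, 11.23 and 10.35 on the day 14 arrays. Mock glands read 9.74, 8.67 and 8.58. All day 14 arrays were above all others, and the days differed by 3.12 ± 0.40 (SE, adjusted p = 3.1e-04). Day 14 minus mock did not pass for Retnla (1.98 ± 0.40, SE, adjusted p = 0.111 by limma). Mrc1, Cd163 and Chil3 were among the 16 lower genes, with Chil3 not above background on day 14 (a bound of at least 0.53). Mertk (-0.98 ± 0.39), Cx3cr1 (-0.51 ± 0.29) and Arg1 (-0.09 ± 0.40) did not pass.

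The other leukocyte and signalling lists had smaller shares of called genes, and some had few or none. Among cytokines and chemokines, 12 of 26 were lower and none higher, and 7 were lower without day 3 resected replicate 3. Ccl8, which attracts monocytes and other leukocytes, read 13.69, 12.97 and 12.43 on day 3 and 8.02, 7.59 and 6.88 on day 14, with 7.85, 8.22 and 7.54 on the mock arrays, and the days differed by -5.53 ± 0.35 (SE, adjusted p = 2.5e-06). Ccl6 and Ccl9, chemokines made by myeloid cells, differed by -3.84 ± 0.37 and -4.05 ± 0.40, and Ccl2 by -1.62 ± 0.32. Il6 was not above background on any resected array, between 2.19 and 4.40, and did not pass (adjusted p = 0.422). Neutrophil genes were lower in 4 of 12: Retnlg (-4.47 ± 0.43), S100a8 (-3.08 ± 0.36), Clec4d (-2.46 ± 0.41) and Csf3r (-1.83 ± 0.34). Retnlg, a resistin-like gene of neutrophils, read 6.90, 8.80 and 6.89 on the 3 day 3 arrays, 3.33, 2.95 and 2.89 on the 3 day 14 arrays and 3.30, 2.54 and 3.16 on the 3 mock arrays, and its day 14 levels overlapped those of mock glands. Day 14 readings of Retnlg, S100a8 and Clec4d were not above background, with bounds of at least 2.98, 1.37 and 2.19. Of 16 T and NK cell genes 2 passed as lower, Il7r and Gzma, and neither call held when any of 4 resected arrays (day 3 replicate 1 or 3, day 14 replicate 1 or 3) was left out; 1 passed without day 3 or day 14 resected replicate 2 or day 3 mock replicate 1 or 2. Antigen presentation had 1 lower gene of 13 (7.69%, against 4.88% of all clusters), H2-DMa, which lost its call without 6 of the 9 arrays in turn. Mast cell genes had none of 10. The lysosome list, the digestive compartment on which phagocytes depend, had 10 of 16 lower and none higher; it had 6 lower without day 3 resected replicate 2 or 3. Its strongest members were the proteases Lgmn (-3.92 ± 0.42), Ctss (-2.99 ± 0.33) and Ctsb (-2.31 ± 0.26). The macrophage list fell alongside the genes of these lists that were lower, and its part in their falls was not tested.

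A plasma cell gene gave the largest rise, with uneven replicates. Jchain, which encodes the chain that joins antibody subunits for secretion, read 3.57, 3.98 and 6.15 on the day 3 arrays and 15.19, 7.40 and 10.14 on the day 14 arrays, beside 9.22, 10.95 and 14.18 in mock glands. Day 14 values were spread over several units, all of them above the day 3 values, and the difference was 6.34 ± 1.60 (SE, adjusted p = 0.0324). The call was lost without day 14 resected replicate 1 (adjusted p = 0.0971) or 3 (0.0743), or without day 3 resected replicate 1 (0.0959), 2 (0.109) or 3 (0.0533). For Jchain, 2 of the 3 day 3 readings were at or below the negative control median. Of 12 B and plasma cell genes, Jchain and Pou2af1 passed as higher, and 10 did not. No gene passed without any 1 of the same 5 arrays, and 1 passed without any 1 mock array. Pou2af1 (1.55 ± 0.43) was not above background on the 3 day 3 arrays and on 2 of the 3 day 14 arrays. That leaves a bound of at least 0.17. Lymph node genes, measured because nodes lie beside the gland, gave 1 lower (Cxcl13, -3.30 ± 0.39) and 1 higher (Cr2) of 9; all 6 Cr2 readings were at or below the negative control median, so no size is given. The centred median of the lymph node list was -0.15 to 0.13 on day 3 and -0.16 to 0.21 on day 14, so the groups overlapped.

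Genes of the interstitial matrix and of its assembly were lower on day 14. Of 21 collagens and matrix proteins, 13 were lower and none higher (median -1.78, and 0.18 for day 14 minus mock). Col1a1, a chain of type I collagen, read 10.83, 13.06 and 13.53 on day 3 and 9.42, 8.34 and 7.91 on day 14, with 7.29, 7.81 and 6.95 on the mock arrays. On day 3, replicate 1 was below the other 2, but it was still above every day 14 array, and the difference was -3.92 ± 0.58 (SE, adjusted p = 0.00102). Col3a1, the type III chain, read 14.39, 15.56 and 16.14 on the 3 day 3 arrays, 13.17, 12.24 and 11.73 on the 3 day 14 arrays and 10.49, 10.86 and 10.66 on the 3 mock arrays. Its day 14 arrays remained above all mock arrays in level, while the days differed by -2.98 ± 0.42 (SE, adjusted p = 6.9e-04). Tnc, a matricellular protein of wounds, showed a wide day 3 spread, with 7.24, 9.37 and 11.78 on the day 3 arrays and 4.78, 4.81 and 4.62 on the day 14 arrays, beside 3.81, 4.41 and 3.45 in mock glands. The difference for Tnc was -4.73 ± 0.78 (SE, adjusted p = 0.0021). Fn1 (fibronectin) differed by -3.18 ± 0.57, Postn (periostin) by -3.16 ± 0.31 and Sparc by -2.51 ± 0.31.

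Of 14 genes that process and crosslink collagen, 9 were lower and none higher, and 4 were lower without day 3 resected replicate 3. Lox, the oxidase that crosslinks collagen, read 8.69, 9.10 and 10.19 on day 3 and 4.98, 4.32 and 4.82 on day 14, with 4.85, 4.50 and 5.14 on the mock arrays, and the difference was -4.62 ± 0.35 (SE, adjusted p = 1.0e-05). Serpinh1, the collagen chaperone, differed by -2.01 ± 0.39. Of 22 matrix proteases and inhibitors 6 were lower and 16 did not pass; among the 6 was Timp1, which encodes an inhibitor of metalloproteinases. Timp1 read 9.16, 9.82 and 11.04 on the 3 day 3 arrays, 3.85, 4.07 and 4.14 on the 3 day 14 arrays and 3.81, 3.28 and 3.55 on the 3 mock arrays, with day 14 close to mock, and differed by -5.99 ± 0.37 (SE, adjusted p = 2.5e-06). All 3 day 14 readings were at or below the negative control median, which leaves a bound of at least 5.46. Mmp12, the macrophage elastase, differed by -4.62 ± 0.45 and Mmp3 by -2.64 ± 0.35. Of the TGF-beta response list 3 of 16 were lower: Cthrc1 (-3.95 ± 0.46, with day 14 not above background and a bound of at least 3.05), Tgfbi (-2.19 ± 0.37) and Tgfb1 itself (-1.87 ± 0.24). Of 18 Wnt and Hedgehog genes the secreted Wnt modulators Sfrp2 (-2.74 ± 0.35) and Sfrp4 (-2.23 ± 0.36) were lower. Day 14 levels of Sfrp4 were still above mock glands (2.21 ± 0.36, SE, adjusted p = 0.0328 by limma), while Sfrp2 did not pass there (0.96 ± 0.35). Basement membrane genes had 1 lower of 16 (6.25%), the laminin gene Lama4, and endothelial genes 1 of 18 (5.56%), Eng. These shares are near the 4.88% of all clusters that were lower. Both calls were lost without any 1 of day 14 resected replicates 1 and 3 and day 3 resected replicates 2 and 3, and that of Lama4 also without day 14 resected replicate 2 (adjusted p up to 0.113), and the endothelial marker Pecam1 did not pass (-0.50 ± 0.37, adjusted p = 0.531).

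Genes for secretory products of the granular ducts were higher on day 14. Of 13 granular convoluted tubule genes, 7 were higher and none lower, with a median of 1.37, and the median of day 14 minus mock was -0.00. The higher count was 4 without day 14 resected replicate 2, and 2 without day 14 resected replicate 3 or day 3 resected replicate 3. Egf, the epidermal growth factor stored in these tubules, read 12.0, 12.45 and 11.48 on the day 3 arrays and 13.34, 15.04 and 16.04 on the day 14 arrays, beside 14.10, 15.98 and 14.66 in mock glands. Day 3 values lay below all mock and all day 14 values, and day 14 minus day 3 was 2.83 ± 0.59 (SE, adjusted p = 0.0114). That call was lost without day 14 resected replicate 3 (adjusted p = 0.0519) or day 3 resected replicate 3 (0.064). Klk1b27, a kallikrein-related serine protease, read 12.44, 12.65 and 11.19 on day 3 and 13.50, 14.78 and 14.89 on day 14, with 14.15, 15.02 and 13.98 on the mock arrays, a difference of 2.30 ± 0.44 (SE, adjusted p = 0.00623), and this call held with any array left out. Klk1b21 also kept its call, at 2.03 ± 0.36 (SE, adjusted p = 0.00338). Klk1b16 read 15.22, 16.08 and 13.88 on the 3 day 3 arrays, 16.48, 18.25 and 18.52 on the 3 day 14 arrays and 16.90, 18.49 and 17.41 on the 3 mock arrays and differed by 2.69 ± 0.60 (SE, adjusted p = 0.0167); it lost the call without day 14 resected replicate 2 (0.0763) or 3 (0.0841) or day 3 resected replicate 3 (0.0862). Kallikrein genes are close copies of one another, so signal may be shared between them. Of the 6 tubule genes that did not pass, 5 (Klk1, Klk1b5, Klk1b11, Klk1b22 and Klk1b26) were at the ceiling on at least 3 of the resected arrays, and their differences are limited by it. The sixth, Klk1b9, differed by 1.12 ± 0.33 (SE, adjusted p = 0.0673).

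Acinar and ductal genes moved in the same direction in smaller numbers. Of 16 serous acinar genes 3 were higher and none lower, and 1 was higher without day 14 resected replicate 3 or day 3 resected replicate 3; 3 others were at the ceiling. Rab27b, a GTPase of secretory granules, read 13.07, 13.04 and 12.50 on the day 3 arrays and 14.77, 14.63 and 14.31 on the day 14 arrays, beside 13.46, 12.91 and 13.62 in mock glands and differed by 1.70 ± 0.25 (SE, adjusted p = 0.00107). Bhlha15 (Mist1), the transcription factor of mature secretory cells, read 13.54, 12.65 and 12.65 on day 3 and 14.50, 13.90 and 14.57 on day 14, with 13.78, 14.01 and 14.62 on the mock arrays and differed by 1.38 ± 0.31 (SE, adjusted p = 0.017); it lost the call without day 14 resected replicate 1 or 3 or day 3 resected replicate 2 or 3, with adjusted p between 0.0738 and 0.0885. Aqp5 did not pass (-0.11 ± 0.34, adjusted p = 0.911), and its sign turned with quantile normalisation (0.04) and without day 3 resected replicate 1 (0.19). Of 16 ductal and ionocyte genes 4 were higher. Scnn1g, a subunit of the sodium channel that recovers salt from saliva, read 8.76, 8.66 and 8.09 on the 3 day 3 arrays, 9.61, 10.03 and 10.13 on the 3 day 14 arrays and 10.42, 9.63 and 9.83 on the 3 mock arrays and differed by 1.42 ± 0.27 (SE, adjusted p = 0.00595). The other 3, Elf5, Cftr and Foxi1, each lost the call without at least 6 single arrays; 1 ductal gene passed without any 1 of day 14 resected replicates 1, 2 and 3 or day 3 resected replicates 2 and 3, and 2 without day 3 resected replicate 1 or day 3 mock replicate 1. Of 20 lineage and progenitor factors, Etv5 was lower (-1.49 ± 0.31) and Fgfr2 higher (0.78 ± 0.21). That is 5.0% in each direction, against 4.88% lower and 1.40% higher over all clusters. Etv5 lost its call without day 14 resected replicate 1 or 2, and Fgfr2 without any 1 array but day 3 resected replicate 1. Sox9 did not pass (0.48 ± 0.30, adjusted p = 0.438), and neither did the basal keratins Krt5 (-0.91 ± 0.33, adjusted p = 0.14) and Krt14 (-0.65 ± 0.29, adjusted p = 0.259) or the myoepithelial actin gene Acta2 (-0.20 ± 0.29, adjusted p = 0.782).

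**Figure D4:**
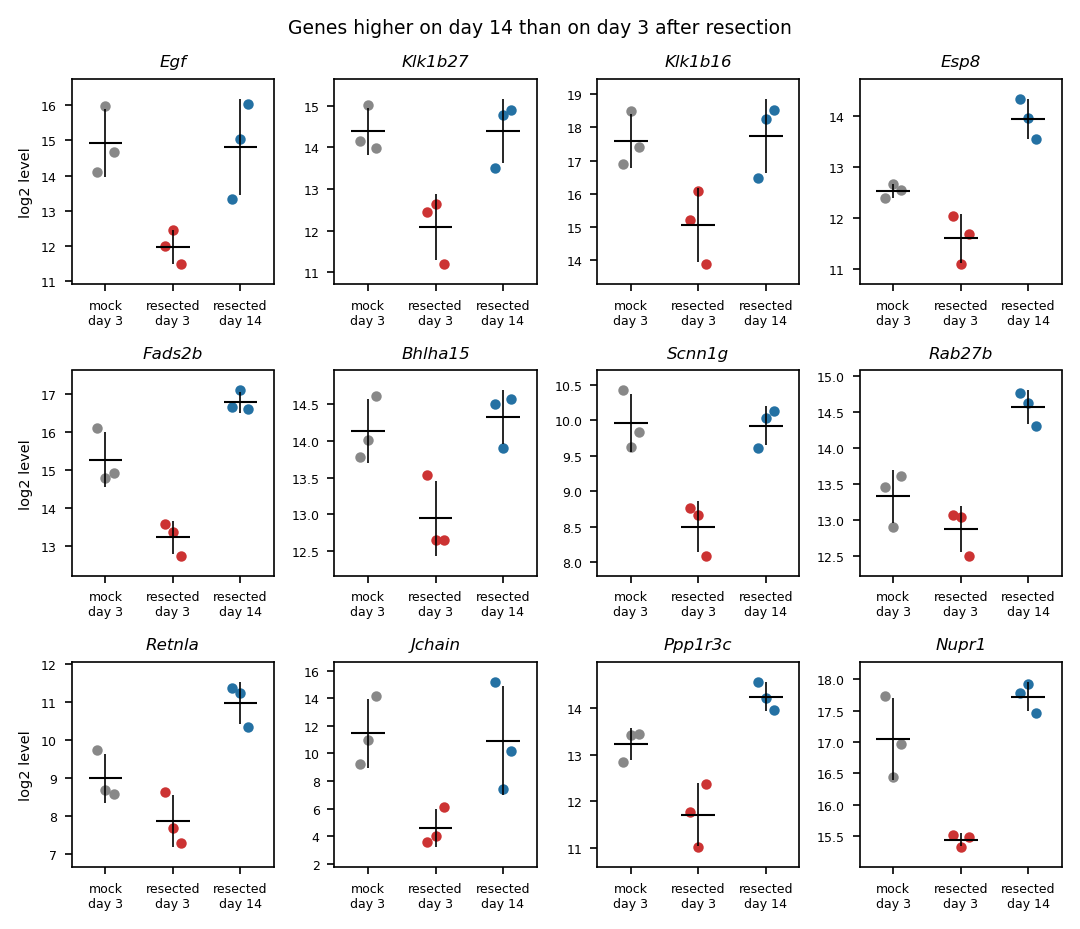
The log2 level on each array is plotted for 12 genes higher on day 14, with the mean (horizontal line) and SD (vertical line, n = 3) of mock day 3, resected day 3 and resected day 14 glands. All day 14 points lie above all day 3 resected points in each panel; Jchain has the widest spread, and each y axis is scaled to its gene.

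Several of the other large rises belonged to no list. Fads2b encodes a relative of the fatty acid desaturases. It read 13.59, 13.37 and 12.75 on the day 3 arrays and 16.66, 17.09 and 16.59 on the day 14 arrays. Mock glands read 16.11, 14.79 and 14.92, and the days differed by 3.54 ± 0.34 (SE, adjusted p = 4.8e-05). All day 14 readings of Fads2b were above mock, but day 14 minus mock did not pass (1.5 ± 0.34, SE, adjusted p = 0.16 by limma). Ppp1r3c, which targets a phosphatase to glycogen, read 11.76, 11.01 and 12.36 on day 3 and 14.56, 14.22 and 13.95 on day 14, with 12.84, 13.42 and 13.45 on the mock arrays and differed by 2.53 ± 0.32 (SE, adjusted p = 3.0e-04). Nupr1, a small stress-response protein of the nucleus, read 15.52, 15.32 and 15.49 on the 3 day 3 arrays, 17.78, 17.92 and 17.46 on the 3 day 14 arrays and 17.73, 16.44 and 16.96 on the 3 mock arrays and differed by 2.28 ± 0.29 (SE, adjusted p = 3.0e-04). Sema4g, a class 4 semaphorin, differed by 2.51 ± 0.31 (day 3 not above background, a bound of at least 1.65), Pnrc1, a nuclear receptor coactivator, by 2.38 ± 0.28, and Tulp1, a tubby-like protein, by 2.27 ± 0.31. These 6 calls held with any array left out. Of the 15 largest rises, 12 kept their call in every alternative; Jchain, Egf and Klk1b16 did not.

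Clock genes separated the days in both directions and stood apart from the lists above in where mock glands lay. The molecular clock is a daily loop in which ARNTL with CLOCK or NPAS2 drives Per, Cry, Nr1d and the output factor Dbp. The products of Per, Cry and Nr1d in turn repress the loop. Of 19 measured clock genes, 7 were lower and 3 higher on day 14 (median -0.50, and -1.13 for day 14 minus mock). Arntl read 6.72, 7.73 and 7.41 on the day 3 arrays and 11.39, 12.39 and 10.73 on the day 14 arrays, beside 7.39, 6.85 and 7.13 in mock glands. The day 3 resected and mock arrays overlapped and the day 14 arrays stood well above both, with a difference of 4.22 ± 0.38 (SE, adjusted p = 3.2e-05). Npas2, the partner that can replace CLOCK, read 6.35, 6.12 and 5.63 on day 3 and 8.88, 9.36 and 8.79 on day 14, with 5.48, 5.11 and 6.81 on the mock arrays and differed by 2.97 ± 0.38 (SE, adjusted p = 2.9e-04). Nfil3, a repressor that binds the same sites as DBP, read 6.29, 6.25 and 7.0 on the 3 day 3 arrays, 9.44, 10.12 and 9.60 on the 3 day 14 arrays and 5.73, 8.98 and 7.67 on the 3 mock arrays and differed by 3.21 ± 0.59 (SE, adjusted p = 0.00461).

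Known targets of ARNTL were among the genes that fell. Dbp, an activator of daily output genes, read 15.49, 15.76 and 15.05 on the day 3 arrays and 8.80, 7.29 and 8.75 on the day 14 arrays, beside 16.39, 15.69 and 15.28 in mock glands, and a difference of -7.15 ± 0.40 (SE, adjusted p = 1.2e-06) made it the second largest fall of a named gene. Its day 3 resected and mock arrays overlapped, and no day 14 array came within 6 units of them. Per3, a repressor of the loop, read 7.45, 8.08 and 7.84 on day 3 and 4.90, 4.32 and 4.76 on day 14, with 7.62, 7.82 and 7.82 on the mock arrays and differed by -3.13 ± 0.23 (SE, adjusted p = 1.0e-05). Usp2, Bhlhe41 and Ciart, which are outputs or modifiers of the clock, differed by -2.19 ± 0.34, -1.77 ± 0.25 and -1.66 ± 0.27; Ciart was not above background on day 14, with a bound of at least 1.04. Nr1d2 (-1.55 ± 0.37) was also lower, and Tef passed as lower with all 6 readings at or below the negative control median, so no size is given. Nr1d2 lost its call without day 14 resected replicate 2 or any 1 day 3 resected array (adjusted p between 0.0541 and 0.0793), and Tef without day 14 resected replicate 2 or 3 or day 3 resected replicate 1 or 2 (between 0.0781 and 0.119). Clock itself did not pass (0.67 ± 0.21, adjusted p = 0.0793), and Per1, Per2, Cry1, Cry2 and Nr1d1 did not either; Nr1d1 read 11.33, 11.67 and 9.26 on the 3 day 3 arrays, 10.34, 6.31 and 11.23 on the 3 day 14 arrays and 11.95, 11.22 and 11.94 on the 3 mock arrays, which overlapped between the days. Day 14 minus mock, which shares the day 14 arrays, was 4.38 ± 0.38 (SE, adjusted p = 1.6e-04) for Arntl, 3.21 ± 0.38 (SE, adjusted p = 0.00239) for Npas2 and -7.50 ± 0.40 (SE, adjusted p = 1.3e-06) for Dbp. Collection hour, which sets the phase of such genes, is not in the labels, and its part was not tested.

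**Figure D5:**
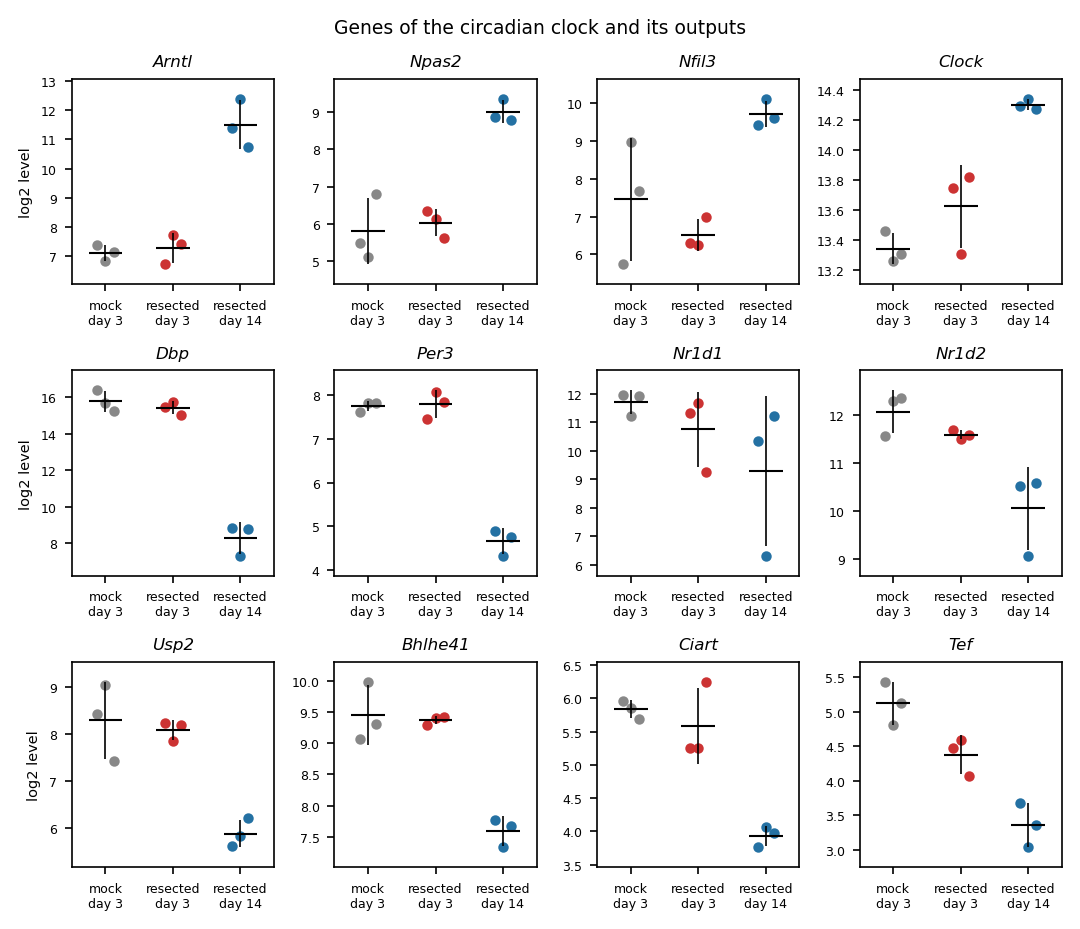
The log2 level on each array is plotted for 12 clock genes in mock day 3, resected day 3 and resected day 14 glands, with mean (horizontal line) and SD (vertical line, n = 3). Arntl, Npas2 and Nfil3 are highest on the 3 day 14 arrays and Dbp and Per3 lowest there, while the ranges of mock and resected day 3 points overlap in these 5 panels; Nr1d1 and Clock did not pass.

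The promoter of Per3 (GRCm38.p6, chr4:151044616-151044915, minus strand) is shown because Dbp, the factor with the large fall, binds D-boxes, and this gene was chosen after its values were seen. The D-box letters, TTATGTAA, TTATATAA, TTACGTAA or TTACATAA, were searched on both strands and are in capitals. They occurred in 1 of 22 promoters of the 17 clock genes with an entry (4.55%) and in 1.59% of all promoters. The 1 clock promoter is that of Per3, the gene chosen, so this share is not separate evidence. A part of Dbp in the level of Per3 was not tested.
Per3: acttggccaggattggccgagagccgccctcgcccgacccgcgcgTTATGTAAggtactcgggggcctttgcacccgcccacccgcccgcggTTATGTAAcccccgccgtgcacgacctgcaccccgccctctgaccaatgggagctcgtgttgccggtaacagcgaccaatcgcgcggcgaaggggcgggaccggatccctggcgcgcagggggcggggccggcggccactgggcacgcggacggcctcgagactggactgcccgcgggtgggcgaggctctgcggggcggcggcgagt
The octamer begins at -205 and again at -158 from the start site. The E-box CACGTG, which ARNTL recognises, was in 6 of 22 clock promoters (27.3%) and in 7.15% of all.

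Some genes of cholesterol and fatty acid synthesis were lower on day 14, with less even replicates. Of 15 genes 7 were lower and none higher, and the median was -1.82, against -0.98 for day 14 minus mock. Without day 3 resected replicate 2 the median was -0.99, and with the Dcpp3 level as a covariate 3 genes were lower. Idi1, an isomerase early in the sterol pathway, read 9.31, 11.49 and 9.83 on the day 3 arrays and 6.91, 7.64 and 7.16 on the day 14 arrays, beside 10.28, 9.50 and 8.96 in mock glands and differed by -2.97 ± 0.48 (SE, adjusted p = 0.00187). Day 3 resected replicate 2 was the highest array for Idi1, and it was also highest for Fdps, which makes farnesyl diphosphate and differed by -2.93 ± 0.47 (SE, adjusted p = 0.00172). These 2 calls held with any array left out. Only 2 genes of the list passed without day 14 resected replicate 1, day 14 resected replicate 3 or day 3 resected replicate 2, and 3 passed without day 3 resected replicate 3. Insig1, which restrains sterol synthesis when sterols are plentiful, read 15.36, 17.89 and 14.70 on day 3 and 12.86, 13.44 and 11.63 on day 14, with 16.73, 14.39 and 13.59 on the mock arrays; it differed by -3.34 ± 0.84 (SE, adjusted p = 0.032), and the call was lost without day 14 resected replicate 1 (adjusted p = 0.0872), day 14 resected replicate 3 (0.133) or day 3 resected replicate 2 (0.12).

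Smaller groups complete the account. Of 12 heat shock and cold-inducible genes 4 were lower, among them the cold-inducible RNA-binding protein gene Rbm3 (-1.61 ± 0.24) and the chaperone gene Hsp90aa1 (-1.41 ± 0.26); 2 were lower without day 14 resected replicate 1 or 2 or day 3 resected replicate 2 or 3. Rbm3 on day 14 was also lower than in mock glands (-1.86 ± 0.24, SE, adjusted p = 0.00552 by limma), and its mock and day 3 readings overlapped. Hsp90aa1 did not pass against mock glands (-0.30 ± 0.26). Hspa1b did not pass between the days (0.21 ± 0.31, adjusted p = 0.787). Interferon response genes were lower in 5 of 18, but 0 passed without day 14 resected replicate 2 or 3 or day 3 resected replicate 3, 1 without day 14 resected replicate 1, 2 without day 3 resected replicate 2 and 3 without day 3 resected replicate 1. The lists with no gene past the threshold included oxidative phosphorylation (23 genes, median -0.04), the folding machinery of the secretory pathway (20, median -0.02), immediate early genes (17), ribosome biogenesis (15) and basal and myoepithelial genes (14). Ngfr, a neurotrophin receptor, was the 1 higher gene of 12 nerve and glia genes (1.33 ± 0.29); its call was lost without day 14 resected replicate 3 (adjusted p = 0.0552) or day 3 resected replicate 2 (0.0551).

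Products of neighbouring salivary glands varied between arrays within a day. Dcpp3, a secreted protein of the sublingual gland, read 16.70, 7.80 and 19.69 on the 3 day 3 arrays, 17.06, 19.71 and 14.05 on the 3 day 14 arrays and 6.28, 8.17 and 5.80 on the 3 mock arrays. It was near the top of the scale on some arrays of both days and low in day 3 resected replicate 2, so the days overlapped and the difference was 2.21 ± 2.25 (SE, adjusted p = 0.667); without that array it was -1.26. Bpifa2, a secreted protein of the parotid gland, read 12.80, 12.40 and 17.88 on the day 3 arrays and 15.46, 19.93 and 14.27 on the day 14 arrays, beside 13.50, 14.09 and 14.02 in mock glands, again with overlap, and did not pass (2.19 ± 1.40, adjusted p = 0.449). The other measured sublingual genes, Muc5b, Galnt12 and Bpifb2, read between 2.29 and 4.28 on the resected arrays. Muc19, Dcpp1 and Dcpp2, also on that list, could not be read here. Of 5 parotid genes 1, Prpmp5, was higher, a call lost without 6 of the 9 arrays in turn. With the Dcpp3 level as a covariate, 1216 clusters passed.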

How the data were processed

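Total RNA of 9 submandibular glands was labelled by the Affymetrix WT Plus protocol and hybridised to Clariom S arrays, 1 array per biological replicate, per the labels' protocols. The deposited values are log2 expression levels per transcript cluster. They were summarised by RMA in Transcriptome Analysis Console 4.0, per the submitters' processing notes and the series' design text. RMA normalises arrays to one another, so a difference is relative to the rest of the array; the number of arrays limits the precision. Of 28846 rows, 6640 control rows were left out. Gene symbols came from GEO's platform annotation: 19572 clusters had 1 symbol, none had several and 2634 had none.

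A mean per group was fitted over all 9 arrays with limma 3.58.1 in R 4.3.3 (6 residual degrees of freedom, empirical Bayes), and day 14 resected minus day 3 resected was tested with Benjamini-Hochberg adjustment over 22206 clusters at 0.05. SE is that of the moderated fit. The fit was tested on simulated data. Genes were named as the 15 largest rises and 15 largest falls past the threshold with 1 symbol and without overlap between groups, up to 4 past the threshold per list, and a short panel; others are named where a list is described, chosen after their values were seen. The members and lists were chosen with earlier results of these data known. Alternatives were quantile normalisation, median centring, leaving out the dimmest 30% of clusters, the 6 resected arrays alone, a replicate block, robust or trended empirical Bayes, array weights, the Dcpp3 level as covariate, 2-fold rules and leaving out each array. Levels were compared with the median of each array's negative control rows, a check added after the data had been seen. No slide, scan date or other batch was used here. Promoters came from RefSeq (GRCm38.p6).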

Additional observations from a re-analysis of the deposited data

Results flagged for a closer look

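A signal outside the main measurement differed between the groups. The median of the 5222 negative control rows, which should carry no specific signal, was 4.65 on the lowest of the 3 day 3 resected arrays and 4.77 on the highest. On the mock arrays it ran from 4.41 to 4.52 and on the day 14 resected arrays from 4.51 to 4.61. The day 3 resected arrays thus lay above both other groups; its effect on the differences was not tested.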

How the results depend on the processing

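The number of clusters past the threshold ranged from 874 to 1429 when 1 array was left out, with 129 to 334 higher and 745 to 1121 lower, against 1394, 310 and 1084 with all arrays. Under the other settings it ranged from 1173, when a 2-fold difference was also required, to 1688 with array weights. The share of higher calls was 22.2%, and 31.8% with quantile normalisation. Signs turned for 3 genes that did not pass: Aqp5 (0.04 with quantile normalisation, and -0.27 to 0.19 with 1 array left out), Acta2 (-0.39 to 0.03 with 1 array left out) and Dcpp3 (-1.26 to 4.69 with 1 array left out); the cause was not tested. The genes named by rank, by list (up to 4 each) or from the panel included 104 past the threshold. Of these, 72 kept their call in every setting and 32 lost it without at least 1 array. Other genes named where a list is described were not counted.

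Replicate numbers are shared between the groups, but arrays of the same number did not deviate together: the correlations were 0.013, -0.087 and -0.073. With the replicate block, 1297 clusters passed (275 higher, 1022 lower).

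With 3 arrays per group, small changes in variable genes were not detectable. Values at the ceiling carry no order.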

Other observations

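Gene families chosen after their values were seen add detail to the comparison, and none of them is independent evidence. Replication-dependent histone genes, which package new DNA in S phase, were lower on day 14 in 42 of 53 and higher in none, with a median of -2.58 (4.88% of all clusters were lower). H2ac8 read 12.30, 12.62 and 12.32 on day 3 and 8.18, 8.40 and 8.59 on day 14, a difference of -4.02 ± 0.23 (SE, adjusted p = 1.3e-06 by limma). H3c14 and H3c15 carried identical values on all arrays, so they cannot be read as separate genes. CCAAT was present in 41 of 48 histone promoters (85.4%, against 37.4% of all promoters) and TTTGAA in 22 (45.8%, against 17.9%). Of 19 genes for centromere proteins, 14 were lower and none higher, led by Cenpm, which read 11.38, 13.21 and 11.50 on day 3 and 5.38, 5.52 and 4.97 on day 14 (-6.74 ± 0.68).

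All 5 measured genes for Fc gamma receptors and their shared chain, with which phagocytes bind antibody-coated targets, were lower on day 14. Fcgr2b, the inhibitory receptor, read 12.10, 12.70 and 12.74 on day 3 and 9.04, 8.71 and 8.73 on day 14, a difference of -3.69 ± 0.23. Of 13 Esp genes, which encode peptides released in exocrine secretions, 3 were higher: Esp8 (2.34 ± 0.28), Esp18 (2.13 ± 0.43) and Esp4 (1.38 ± 0.27), and these calls held with any array left out. The other 10 did not pass. Of 14 genes of branched-chain amino acid breakdown 5 were higher, with Bckdha, a subunit of the rate-setting dehydrogenase, at 1.37 ± 0.29; the count was 0 without day 14 resected replicate 1 or 3 or day 3 resected replicate 3, and 2 without day 14 resected replicate 2 or day 3 resected replicate 2.

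Of 2634 clusters without a gene symbol, 93 were lower on day 14 (3.53%, against 4.88% of all clusters) and 42 higher (1.59%, against 1.40%), shares near those over all clusters. The largest fall among these read 11.29, 12.02 and 14.44 on day 3 and 4.73, 5.74 and 4.54 on day 14 (-7.58 ± 0.62), and the largest rise read 13.08, 12.35 and 12.94 on day 3 and 16.39, 18.03 and 15.78 on day 14 (3.94 ± 0.65).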
